A study of Mus musculus with 8 samples.

Results

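The genes described here encode the subunits of integrins and laminins. They were taken by symbol, from genes named Itga or Itgb with a subunit number or letter and genes named Lama, Lamb or Lamc with a number. The 36 genes reported are 26 for integrins (18 alpha and 8 beta) and 10 for laminins, among 19129 genes tested. The naming rule itself uses no measured value. RNA was sequenced from pancreatic tumour isografts, tumours grown in mice from transplanted mouse tumour tissue, with 1 library from each of 8 mice. In 4 libraries, labelled MEKi, the mice had received trametinib for 7 days, a drug that blocks the kinases just above ERK. The other 4 are labelled control. The treatment of the control mice, the strain, the age and the tumour line were not given in the sources used here. All tissue is whole tumour, so a lower level of a gene can mean fewer cells of a type or less RNA per cell, and these cannot be told apart.

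Integrins are receptors built of 1 alpha and 1 beta subunit that tie a cell to matrix or to another cell and signal from that contact. Laminins are trimers of 1 alpha, 1 beta and 1 gamma chain that form the sheet-like mesh of basement membranes, the matrix on which epithelium, vessels and muscle rest. In the pancreas, ducts and acini sit on laminin and hold it through laminin-binding integrins, fibroblasts use mostly collagen- and fibronectin-binding integrins, and leukocytes carry their own set for leaving vessels and entering tissue. By these textbook roles the genes were placed into 9 epithelial, 12 stromal, 9 leukocyte or platelet and 6 broadly expressed subunits. The placement is by where a subunit is best known, and these data do not show which cells made each transcript.

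Reads in tested genes numbered between 20182531 and 38569550 in MEKi libraries and between 20090101 and 31797960 in control libraries. Values are the deposited log2, variance-stabilised values unless stated otherwise, with mean ± SD over n = 4 libraries per label. On this scale the value for 0 reads is 5.12, and differences between genes with few reads are understated. All 6 epithelial markers (Epcam, Krt8, Krt18, Krt19, Cdh1 and Krt7) were measured, with list means of 13.80 to 14.64 in MEKi libraries and 14.37 to 14.59 in control libraries. Over 10 genes that ERK signalling switches on, the list mean was 8.67, 10.64, 10.37 and 9.57 in MEKi libraries 1 to 4, against 10.57, 10.54, 8.95 and 8.69 in control libraries 1 to 4. High and low libraries thus stood under both labels, and every difference below is between libraries by their labels. Summed reads of 10 acinar genes, which make digestive enzymes, ranged from 11.7 to 2447 reads per 1e6 reads in MEKi libraries and from 208 to 115485 in control libraries, highest in control 3 and control 2.

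Between libraries labelled MEKi and control, no integrin or laminin subunit gene passed the test. Limma called 0 of the 36 genes at an adjusted p under 0.05, where it called 0.00523% of all tested genes. At an unadjusted p under 0.05 limma also gave 0 of 36, against 1.77% of all genes. In 0 of 36 genes did the 4 MEKi values lie wholly above or below the 4 control values, against 1.27% of all genes. The mean of 17 genes was higher and of 19 lower in MEKi libraries, with a median log2 difference of -0.01, and the median over all genes was 0.01. Values of single genes differed by up to 2.38 between libraries of the same label. Of 17 pairs of partner subunits compared across the 8 libraries, 3 passed the threshold by Pearson's r and 0 by Spearman's rho.

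**Figure D1:**
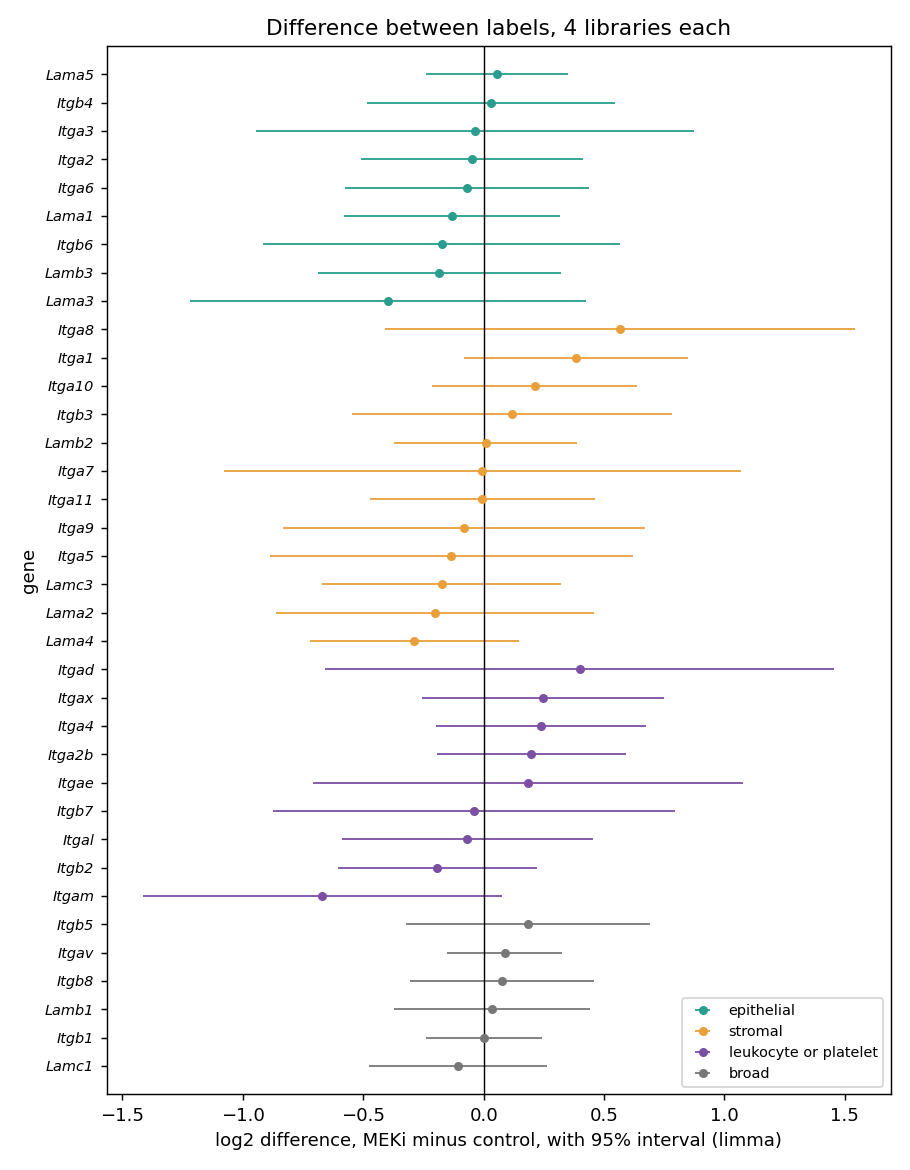
Log2 difference (MEKi minus control) on the horizontal axis for each of the 36 subunit genes, with its 95% interval from limma, coloured by group. Every interval crosses 0, and Itgam has the lowest estimate, -0.67.

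Levels of different genes were compared per length, as reads scaled by library size factor and divided by the kilobases (kb) of the gene's exons. Itgb1, the beta subunit that pairs with most matrix-binding alpha subunits, stood highest with a mean of 4864 scaled reads per kb over the 8 libraries, and its libraries spanned 4425 to 5443. Next came Itga3, an alpha subunit for laminin (1513), Itga2, an alpha subunit for collagen (1406), Itgb5, which pairs with Itgav (1334), and Lama5, the main laminin alpha chain of adult epithelium (1333). The ranges of these 4 genes overlapped, so their order is not settled by these libraries. At the low end were Lamc3 (6.56) and Itgad, a leukocyte alpha subunit (5.21).

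Within each family the transcript per length was unevenly divided. Itgb1 made up 59.5% ± 2.90 of the beta subunit sum in MEKi libraries and 60.3% ± 2.91 in control libraries (SD, n = 4 each). Among laminin alpha chains Lama5 made up 82.6% ± 2.68 in MEKi libraries and 78.9% ± 3.12 in control libraries. Lamb1 held 48.6% ± 5.14 of the beta chains in MEKi libraries and 47.0% ± 5.17 in control libraries. The alpha subunits were more evenly divided, with Itga3 at 21.1% ± 5.11 in MEKi libraries and 22.1% ± 6.81 in control libraries, and Itga2 close to it. Itgax, a leukocyte subunit, held 11.3% ± 3.57 of the alpha sum in MEKi libraries and 9.38% ± 2.45 in control libraries. These means were close to those of Itgav and above those of Itga5, but Itga5 stood above Itgax in MEKi 2, control 1 and control 2.

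**Figure D2:**
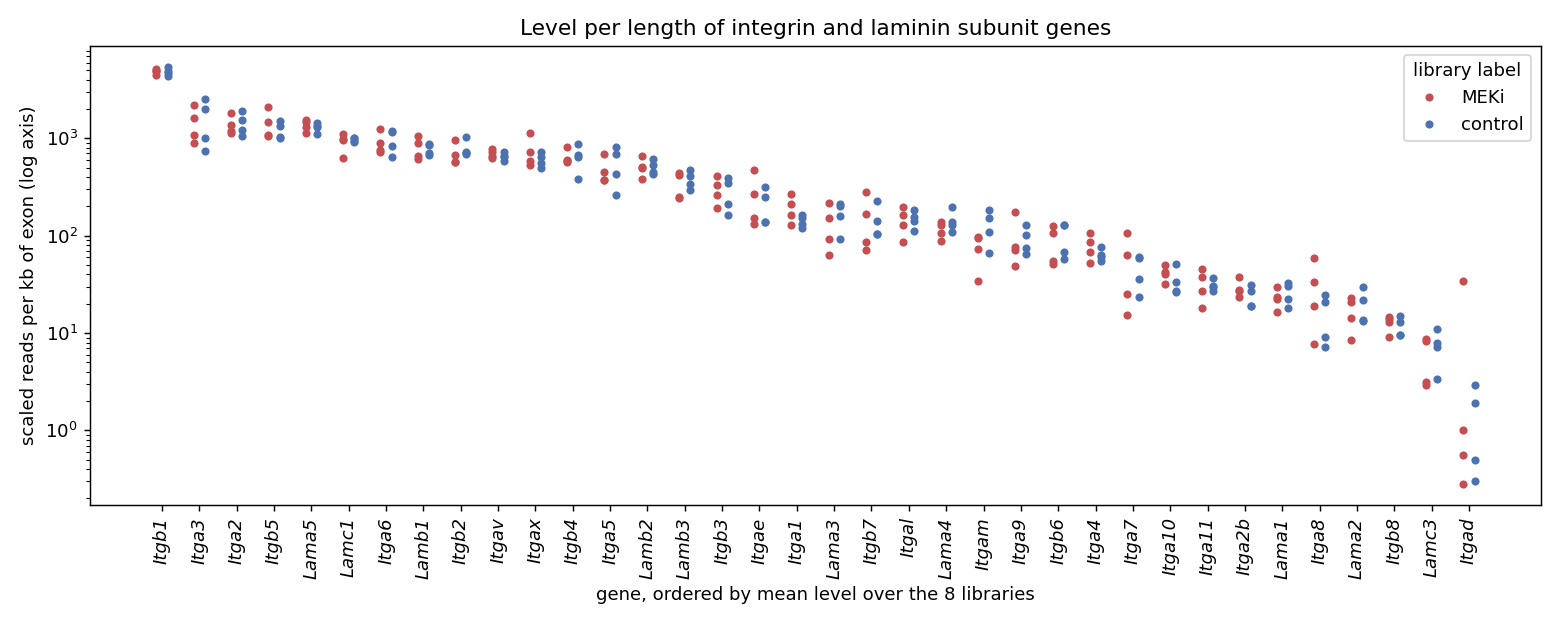
Scaled reads per kb of exon (log axis) for the 36 genes, ordered by their mean over 8 libraries, with 1 point per library and MEKi left of control for each gene. Itgb1 stands above all others at 4425 to 5443, and the MEKi and control points of each gene overlap.

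The epithelial group holds the receptors and chains that anchor duct cells to basement membrane. Limma called 0 of its 9 genes, 2 had higher and 7 lower means in MEKi libraries, and the median log2 difference was -0.07 (all genes 0.01). Without control 2 and control 3, the libraries with the most acinar reads, the median was 0.02. Libraries differed more than labels did, with group means of 11.86 in MEKi 2 and 11.39 in MEKi 4, and of 11.94 in control 2 and 11.30 in control 4. Of the 9 genes, 4 had their highest value in control 2 and 2 in MEKi 2, and 5 had their lowest value in control 4. With single libraries left out the median moved between -0.20 without control 4 and 0.05 without control 1.

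Itga6 (chromosome 2, 71745616 to 71858416 in GRCm38) and Itgb4 (chromosome 11, 115974709 to 116008412) encode the integrin of hemidesmosomes, the rivets that join epithelial cells to laminin. Itga6 had values of 12.69, 13.47, 12.99 and 12.76 in MEKi libraries 1 to 4, against 13.39, 13.35, 12.91 and 12.54 in control libraries 1 to 4. Itgb4 had 12.03, 12.50, 11.98 and 12.06 in MEKi libraries, against 12.24, 12.61, 12.16 and 11.43 in control libraries. For both genes MEKi 2, control 1 and control 2 were the 3 highest libraries and the labels overlapped fully. The log2 difference of Itga6 was -0.07 (limma SE 0.23, 95% interval -0.57 to 0.44). That of Itgb4 was 0.03 (limma SE 0.23, interval -0.49 to 0.55). Both signs turned when some single libraries were left out, that of Itgb4 to -0.20 without control 4.

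Itga3, the other laminin-binding alpha subunit of epithelium, had 12.60, 13.64, 13.18 and 12.35 in MEKi libraries, against 13.50, 13.82, 12.50 and 12.08 in control libraries. Itga2, which binds collagen on epithelial cells and platelets, had 12.99, 13.66, 13.28 and 13.05 in MEKi libraries, against 13.75, 13.43, 13.09 and 12.91 in control libraries. Both were high in MEKi 2, control 1 and control 2, like Itga6. The ERK list means given above were also highest in MEKi 2, control 1 and control 2, and the part of ERK output in these levels was not tested.

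Itgb6 (chromosome 2, 60598292 to 60722643) encodes the partner of Itgav that releases active TGF-beta and is made almost only by epithelium. It had 9.90, 8.85, 8.75 and 9.70 in MEKi libraries 1 to 4, against 9.11, 8.90, 9.95 and 9.94 in control libraries 1 to 4. MEKi 1, MEKi 4, control 3 and control 4 lay at 9.70 to 9.95 and the other 4 libraries at 8.75 to 9.11, so that each label held 2 high and 2 low libraries. The same 4 libraries had the 4 lowest ERK list means, 8.67 to 9.57, and this relation was not tested. The log2 difference between labels was -0.17 (limma SE 0.33, 95% interval -0.92 to 0.57), and ranged from -0.38 without MEKi 1 to 0.01 without MEKi 3.

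Lama3 and Lamb3 encode an alpha and a beta chain of laminin that epithelium lays down beneath hemidesmosomes. Lama3 had 10.75, 11.22, 10.07 and 9.55 in MEKi libraries, against 11.19, 11.14, 10.79 and 10.06 in control libraries. Lamb3 had 11.47, 11.55, 10.74 and 10.73 in MEKi libraries, against 11.17, 11.64, 11.44 and 10.97 in control libraries. MEKi 4 was the lowest library for both chains, and the labels overlapped for each. Log2 differences were -0.40 for Lama3 (limma SE 0.37, interval -1.22 to 0.42) and -0.18 for Lamb3 (SE 0.22, interval -0.69 to 0.32). That of Lama3 was -0.12 without MEKi 4, -0.67 without MEKi 2 and -0.64 without control 4. That of Lamb3 was between -0.33 without MEKi 2 and -0.05 without MEKi 4, and 0.05 without control 2 and control 3 together.

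Of the other epithelial laminin chains, Lama5 spanned only 13.66 to 14.11 in MEKi libraries and 13.65 to 14.02 in control libraries. Lama1, an alpha chain of embryonic basement membrane, was low, at 7.80 to 8.48 in MEKi libraries and 7.91 to 8.58 in control libraries. Epcam, the epithelial marker with the smallest p, averaged 12.37 ± 1.13 in MEKi libraries and 12.80 ± 0.18 in control libraries. It was lowest in MEKi 4 at 10.70, the library lowest for Lama3 and Lamb3. Krt8, Krt18, Krt19 and Krt7 were also lowest in MEKi 4, but Cdh1 was highest there, at 14.49, as was Lama5, at 14.11. The part of epithelial content in these levels was not tested.

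**Figure D3:**
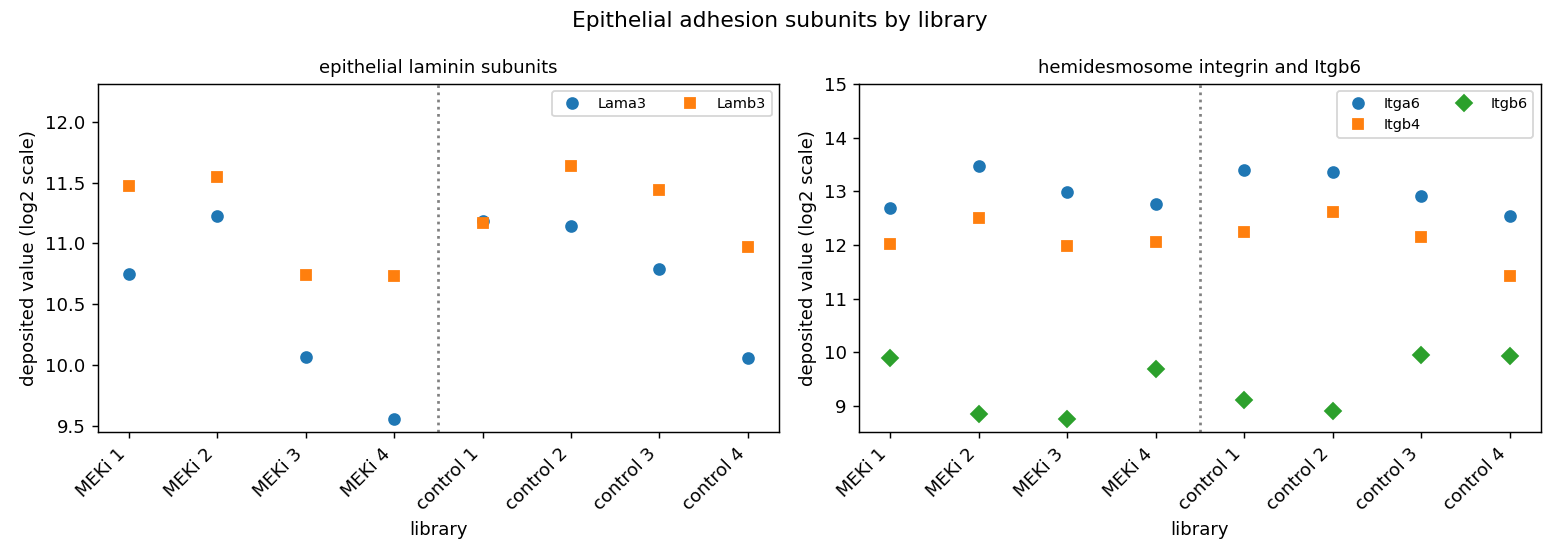
Deposited log2 values of epithelial subunit genes in each library, MEKi 1 to 4 left of the dotted line and control 1 to 4 right of it. Over the 8 libraries r was 0.86 for Itga6 with Itgb4 and 0.87 for Lama3 with Lamb3. Neither pair passed the threshold by Spearman's rho. Itgb6 lies at 9.70 to 9.95 in 2 libraries of each label.

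The promoter of Lamb3 is shown because r was 0.87 between Lamb3 and Lama3, which has no entry in the RefSeq promoter table. It is the first of 2 entries for the gene and covers the 250 bases before and 50 after the transcript start, at chr1:193301744-193302043 on the plus strand of GRCm38.p6, and is given from 5′ to 3′. Capitals here and in the promoters below mark matches, on either strand, to 5 short motifs that were searched: TGANTCA for AP-1, ACCACA for RUNX, GAGGAA for PU.1, GGGCGG for a GC box and TATAAA for a TATA box.
Lamb3: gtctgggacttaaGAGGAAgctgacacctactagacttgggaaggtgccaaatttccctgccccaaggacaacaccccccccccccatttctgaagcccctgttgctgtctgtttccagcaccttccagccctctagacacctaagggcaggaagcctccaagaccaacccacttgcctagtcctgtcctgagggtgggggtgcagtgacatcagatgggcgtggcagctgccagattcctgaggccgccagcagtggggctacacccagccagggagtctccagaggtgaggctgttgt
The window holds a single match, to GAGGAA, near its 5′ end, and none to TGANTCA. A match is a run of letters and does not show that a factor binds there. Across the 23 subunit genes with an entry, which have 26 promoters, TGANTCA occurred in 3, ACCACA in 3, GAGGAA in 14, GGGCGG in 12 and TATAAA in 0. Of all 32851 promoters in the table, 7.81% held TGANTCA, 16.8% ACCACA, 28.3% GAGGAA, 35.7% GGGCGG and 13.6% TATAAA.

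The stromal group covers receptors and chains of fibroblasts, muscle-like cells and vessels. Limma called 0 of its 12 genes, 5 had higher and 7 lower means in MEKi libraries, and the median log2 difference was -0.01. It was 0.02 with library medians aligned and 0.22 with a covariate for the acinar score. Of the 12 genes, 5 had their highest value in MEKi 4 and 4 in control 2. Beside this, the pericyte list was highest in MEKi 4 at 10.49, and the fibroblast list was highest in control 2 at 12.79. Not every marker followed its list. Among pericyte markers, Pdgfrb was highest in MEKi 3 (12.08) and Kcnj8 in control 2 (8.56). Among fibroblast markers, Lum (12.29) and Dpt (9.84) were highest in MEKi 1. All 6 fibroblast markers had lower means in MEKi libraries, with list means of 11.32 to 12.35, against 11.52 to 12.79 in control libraries, and 0 were called. The part of stromal content in these levels was not tested.

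Itga1, a collagen receptor of smooth muscle, pericytes and resident T cells, had 11.25, 11.61, 11.98 and 12.30 in MEKi libraries 1 to 4, against 11.61, 11.51, 11.18 and 11.31 in control libraries 1 to 4. MEKi 3 and MEKi 4 stood above every control library, MEKi 2 was level with control 1, the highest of them, to 2 decimals, and MEKi 1 lay below all but control 3. The log2 difference was 0.38 (limma SE 0.21, 95% interval -0.08 to 0.85, unadjusted p = 0.0967, adjusted p = 0.9996). Without MEKi 4 it was 0.21 and without MEKi 1 it was 0.56. Itga8, which binds nephronectin and marks contractile fibroblasts and pericytes, had 7.66, 6.86, 8.29 and 8.96 in MEKi libraries, against 7.00, 6.79, 7.77 and 7.94 in control libraries. Its log2 difference of 0.57 (limma SE 0.44, interval -0.41 to 1.54) was the highest of the 36 genes, with both labels again overlapping. It was 0.23 without MEKi 4, 0.37 without control 2 and 0.93 without MEKi 2, and 0.99 with voom on recovered reads.

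Itga10 and Itga11 are collagen receptors of cartilage and of fibroblasts. Itga10 had 8.10, 8.14, 7.85 and 8.34 in MEKi libraries, against 7.65, 7.90, 8.36 and 7.67 in control libraries, a log2 difference of 0.21 (limma SE 0.19, interval -0.21 to 0.64). It ranged from 0.13 without control 1 to 0.37 without control 3. Of the Itga10 exon bases, 33.5% also lie under exons of Gm42957 on the same strand, so its reads are uncertain. Itga11 had 8.02, 7.67, 7.26 and 8.21 in MEKi libraries, against 7.78, 7.99, 7.76 and 7.65 in control libraries. Its log2 difference was -0.01 (limma SE 0.21, interval -0.47 to 0.46), and the sign turned under both scalings tried, to 0.04 and 0.02.

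Itga7, the laminin receptor of muscle, was among the most variable subunits, with 9.18, 8.08, 7.55 and 9.87 in MEKi libraries, against 7.99, 8.49, 9.10 and 9.11 in control libraries. Itga5, the fibronectin receptor subunit, had 10.90, 11.77, 11.16 and 10.90 in MEKi libraries, against 11.77, 12.005, 11.10 and 10.40 in control libraries. Itga9, which binds tenascin and is found on muscle and lymphatic vessels, had 9.27, 9.37, 10.47 and 8.80 in MEKi libraries, against 9.73, 10.04, 9.32 and 9.14 in control libraries. None of these 3 separated the labels: MEKi 4 was highest for Itga7, control 2 for Itga5 and MEKi 3 for Itga9. Itgb3, the beta subunit of platelets, osteoclasts and growing vessels, spanned 10.24 to 11.27 in MEKi libraries and 10.02 to 11.23 in control libraries.

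Among stromal laminin chains, Lama4, the alpha chain of vessel walls, had 10.42, 10.67, 10.14 and 10.76 in MEKi libraries, against 10.78, 11.26, 10.67 and 10.43 in control libraries. Its log2 difference was -0.29 (limma SE 0.19, 95% interval -0.72 to 0.15), with control 2 alone above 11. It was -0.13 without control 2, -0.17 without MEKi 3, and -0.08 with a covariate for the acinar score. All 6 markers of blood endothelium had lower means in MEKi libraries too, with list means of 9.12 ± 0.29 in MEKi libraries and 9.38 ± 0.63 in control libraries and 0 called, and their part in Lama4 was not tested. Lama2, the alpha chain of muscle and nerve, spanned 7.67 to 8.80 in MEKi libraries and 8.15 to 9.12 in control libraries. Lamb2, of vessels and muscle, spanned 11.24 to 11.999 in MEKi libraries and 11.38 to 11.89 in control libraries. Lamc3 was near the lower limit, with 21, 40, 65 and 28 reads in MEKi libraries, against 43, 77, 32 and 17 in control libraries.

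The leukocyte and platelet group holds the receptors by which white cells and platelets adhere. Limma called 0 of its 9 genes, 5 had higher and 4 lower means in MEKi libraries, and the median log2 difference was 0.18. With a covariate for the acinar score that median was -0.17. Without MEKi 3 it was also -0.17, so its sign rests on that library, and it was 0.03 without control 1 and 0.02 without control 3. MEKi 3 alone held the highest value of 7 of the 9 genes, and control 2 of the other 2, Itgam and Itgb2. The group mean was 9.39, 8.99, 10.09 and 9.02 in MEKi libraries 1 to 4, against 9.19, 9.55, 9.09 and 9.53 in control libraries 1 to 4. MEKi 3 was also the highest library for the marker lists of dendritic cells (9.05), B cells (8.46) and neutrophils (10.38). Of the neutrophil markers, only S100a8 and S100a9 were highest there, while Csf3r and Cxcr2 were highest in control 4 and Retnlg in control 2. The part of these cells in the integrin levels of MEKi 3 was not tested.

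Itgam (chromosome 7, 128062640 to 128118491 in GRCm38) encodes CD11b, the alpha subunit of macrophages, monocytes and neutrophils, which pairs with Itgb2 to bind complement fragments and ICAM-1. It had 8.77, 9.12, 9.07 and 7.90 in MEKi libraries 1 to 4, against 9.69, 9.95, 9.26 and 8.65 in control libraries 1 to 4. Control 1, control 2 and control 3 lay above all MEKi libraries, and control 4 lay below 3 of them. The log2 difference was -0.67 (limma SE 0.33, 95% interval -1.42 to 0.08), with the smallest unadjusted p of the 36 genes (0.0728, adjusted p = 0.9996). It was -0.40 without MEKi 4 and -0.92 without control 4. Of the Itgam exon bases, 68.7% also lie under exons of Gm49368, a model that runs from Itgam towards Itgax on the same strand, so reads of Itgam may have been left out or shared and its level is uncertain.

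Markers of the cells that carry Itgam were set beside it. Of 8 macrophage markers, 7 had lower means in MEKi libraries and 0 were called, with list means of 11.04 ± 0.16 in MEKi libraries and 11.22 ± 0.27 in control libraries. Adgre1, the macrophage marker with the smallest p, averaged 10.36 ± 0.37 in MEKi libraries and 10.78 ± 0.33 in control libraries (limma adjusted p = 0.9996). All 5 measured neutrophil markers had lower means in MEKi libraries and 0 were called, with list means of 9.34 ± 0.83 in MEKi libraries and 9.85 ± 0.17 in control libraries. Both this list and Itgam were lowest in MEKi 4, and both the macrophage list and Itgam were highest in control 2. The neutrophil list was highest in MEKi 3, at 10.38, where Itgam was 9.07. Of that list, only S100a8 and S100a9 were themselves highest in MEKi 3. The macrophage list was lowest in MEKi 2, at 10.87, where Itgam had its highest MEKi value, 9.12. The part of either cell type in Itgam was not tested.

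Estimates for the other beta2 integrin subunits lay nearer 0. Itgb2, the beta subunit common to all of them, had 11.05, 10.83, 11.55 and 10.83 in MEKi libraries, against 11.11, 11.65, 11.16 and 11.10 in control libraries, a log2 difference of -0.19 (limma SE 0.18, interval -0.61 to 0.22). Without control 2 it was -0.06 and without MEKi 3 -0.35. Itgax (chromosome 7, 128129547 to 128150657), or CD11c, of dendritic cells and some macrophages, had 11.80, 11.34, 12.45 and 11.51 in MEKi libraries, against 11.43, 11.78, 11.26 and 11.63 in control libraries. Its log2 difference was 0.25 (limma SE 0.22, interval -0.26 to 0.75), with MEKi 3 alone above 12. Without MEKi 3 it was 0.02, without MEKi 2 0.39, and with the acinar covariate 0.08. Itgal, the alpha subunit of lymphocytes, had 10.16, 9.32, 10.42 and 9.85 in MEKi libraries, against 9.97, 10.10, 9.65 and 10.31 in control libraries. The differences between these estimates were not tested. Per length, Itgax averaged 748 scaled reads per kb in MEKi libraries and 606 in control libraries, while Itgam averaged 74.9 in MEKi libraries and 127 in control libraries. The Itgam level is uncertain because of the overlap with Gm49368 given above.

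Itgam and Itgax lie side by side on chromosome 7, and their promoters are shown because these neighbouring genes had different levels per length. The level of Itgam is uncertain, since 68.7% of its exon bases also lie under same-strand exons of Gm49368. The Itgam window is chr7:128062390-128062689 and the Itgax window chr7:128129300-128129599, both on the plus strand of GRCm38.p6 and from RefSeq.
Itgam: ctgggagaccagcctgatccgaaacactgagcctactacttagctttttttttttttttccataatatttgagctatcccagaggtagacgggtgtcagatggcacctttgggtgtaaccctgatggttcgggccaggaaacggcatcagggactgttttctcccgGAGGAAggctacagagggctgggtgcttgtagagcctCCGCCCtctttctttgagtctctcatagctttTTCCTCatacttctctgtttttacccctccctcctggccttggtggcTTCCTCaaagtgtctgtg
Itgax: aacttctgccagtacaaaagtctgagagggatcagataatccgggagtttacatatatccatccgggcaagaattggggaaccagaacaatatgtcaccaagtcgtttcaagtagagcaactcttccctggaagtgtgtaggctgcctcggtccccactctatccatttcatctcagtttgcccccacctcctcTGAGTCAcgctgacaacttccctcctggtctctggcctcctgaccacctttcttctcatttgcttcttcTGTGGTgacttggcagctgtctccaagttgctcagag
The Itgam window holds 3 matches to GAGGAA, 2 of them on the opposite strand, and a GC box in its reverse form. The Itgax window holds no GAGGAA but 1 match to TGANTCA and 1 to ACCACA, which appears in reverse form as TGTGGT.

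Itgad was all but absent outside a single tumour. Its reads numbered 5, 2, 189 and 2 in MEKi libraries 1 to 4, against 2, 10, 1 and 11 in control libraries 1 to 4. On the log2 scale these are 5.64, 5.50, 7.77 and 5.39 in MEKi libraries, against 5.48, 5.83, 5.40 and 5.995 in control libraries. Its range over the 8 libraries, 2.38, was the widest of the 36 genes.

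Itgb7 pairs with Itgae on resident T cells and dendritic cells that hold E-cadherin, and with Itga4 on lymphocytes that home to gut. Itgb7 had 9.04, 8.03, 9.74 and 8.26 in MEKi libraries, against 8.47, 8.83, 8.48 and 9.45 in control libraries. Itgae had 10.34, 9.39, 11.14 and 9.58 in MEKi libraries, against 9.46, 10.23, 9.44 and 10.59 in control libraries. Both were highest in MEKi 3, followed by control 4 and then MEKi 1. The T cell marker list was likewise high in control 4, MEKi 1 and MEKi 3, at 9.31, 8.08, 9.27 and 8.68 in MEKi libraries, against 8.51, 8.55, 8.36 and 9.66 in control libraries. Within that list, Cd4 was highest in MEKi 4 (9.83), and Trac was higher in MEKi 4 (8.78) than in MEKi 1 (8.67). The part of T cells in Itgae and Itgb7 was not tested.

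Itga4, which also pairs with Itgb1 to bind VCAM-1, had 9.997, 9.66, 10.59 and 10.30 in MEKi libraries, against 9.70, 9.91, 9.83 and 10.16 in control libraries, a log2 difference of 0.24 (limma SE 0.19, interval -0.20 to 0.67). It was 0.09 without MEKi 3 and 0.40 without MEKi 2. Itga2b, the platelet alpha subunit for fibrinogen, had 7.75, 7.71, 8.07 and 7.57 in MEKi libraries, against 7.36, 7.71, 7.37 and 7.88 in control libraries. Its log2 difference was 0.20 (limma SE 0.18, interval -0.20 to 0.59), and ranged from 0.10 without MEKi 3 to 0.30 without control 4. Both were highest in MEKi 3, and neither separated the labels. Of 4 measured platelet markers, 2 had higher and 2 lower means in MEKi libraries.

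**Figure D4:**
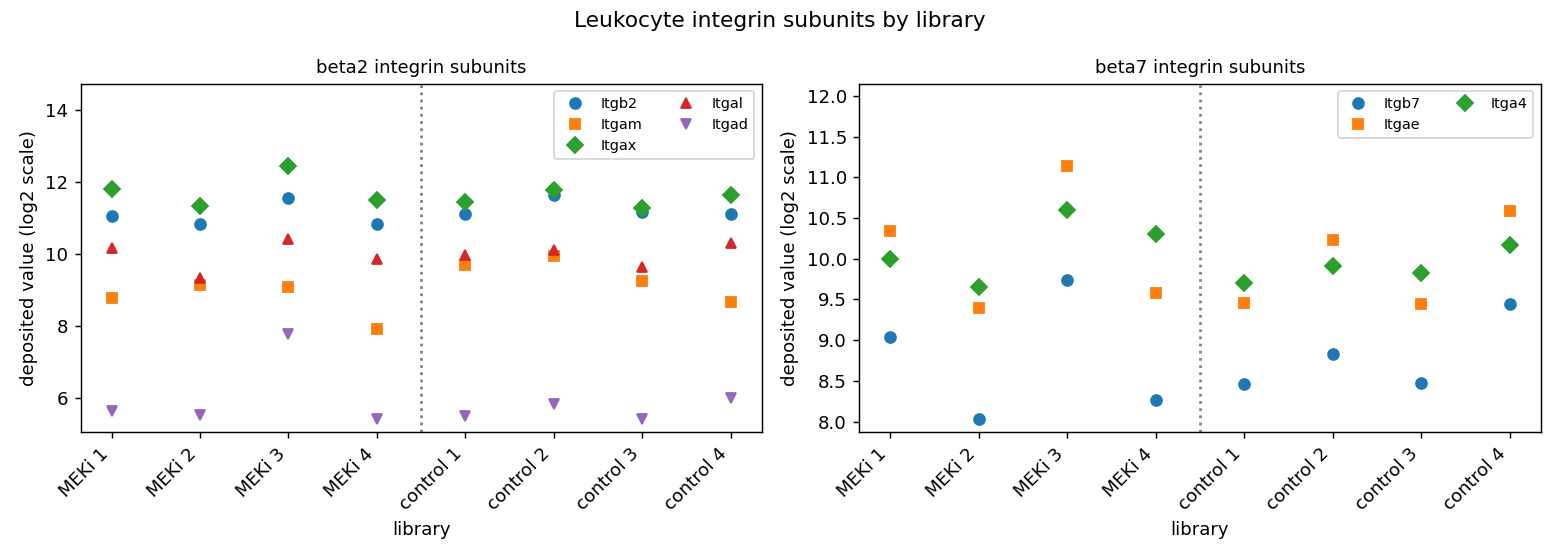
Deposited log2 values of beta2 integrin subunits (left panel) and beta7 integrin subunits (right panel) in each library, MEKi 1 to 4 left of the dotted line and control 1 to 4 right of it. Itgad reaches 7.77 in MEKi 3 and stays at or below 5.995 elsewhere, and r was 0.96 between Itgae and Itgb7 across libraries.

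The broad group had 6 genes, 5 with higher and 1 with lower means in MEKi libraries, a median log2 difference of 0.05 (-0.01 without MEKi 4) and 0 called by limma. Itgb1 had 14.29, 14.37, 14.16 and 14.30 in MEKi libraries, against 14.44, 14.30, 14.22 and 14.15 in control libraries. Its log2 difference was 0.00 (limma SE 0.11, 95% interval -0.24 to 0.24), and 0.16 with quantile normalization. The range of Itgb1 over the 8 libraries, 0.30, was the narrowest of the 36 genes. Itgav, the alpha partner of Itgb5, Itgb6 and Itgb8, had 12.73, 12.82, 12.95 and 13.06 in MEKi libraries, against 12.95, 12.65, 12.82 and 12.78 in control libraries. Itgb5 had 12.38, 11.91, 11.94 and 12.89 in MEKi libraries, against 11.85, 11.87, 12.25 and 12.41 in control libraries. Lamb1, the beta chain with the highest level, spanned 12.59 to 13.38 in MEKi libraries and 12.72 to 13.10 in control libraries. Lamc1, the gamma chain of most laminins, spanned 12.35 to 13.17 in MEKi libraries and 12.89 to 13.06 in control libraries. Itgb8, another activator of TGF-beta with Itgav, was low at 7.34 to 7.82 in MEKi libraries and 7.39 to 7.85 in control libraries.

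Single tumours differed widely. The median range over the 8 libraries was 1.07 for the 36 genes and 0.62 for all genes tested. A range over 1 was seen in 19 of the 36 and in 3642 of all 19129 genes. The sets were not matched for level, with means in MEKi libraries of 10.39 for the 36 and 8.62 for all genes. Ranges of genes with few reads are understated on this scale. Of the 36 genes, 8 were highest in MEKi 3 (22.2%, against 16.0% of all genes tested), 10 in MEKi 4 (27.8%, against 23.2%) and 10 in control 2 (27.8%, against 10.9%). Control 4 was lowest for 8 genes (22.2%, against 11.7% of all genes), and MEKi 2, MEKi 3 and MEKi 4 for 7 each (19.4%, against 12.8%, 13.8% and 21.7%). MEKi 1 was neither highest nor lowest for any, and it was also the library least often highest (7.09%) or lowest (7.28%) over all genes.

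**Figure D5:**
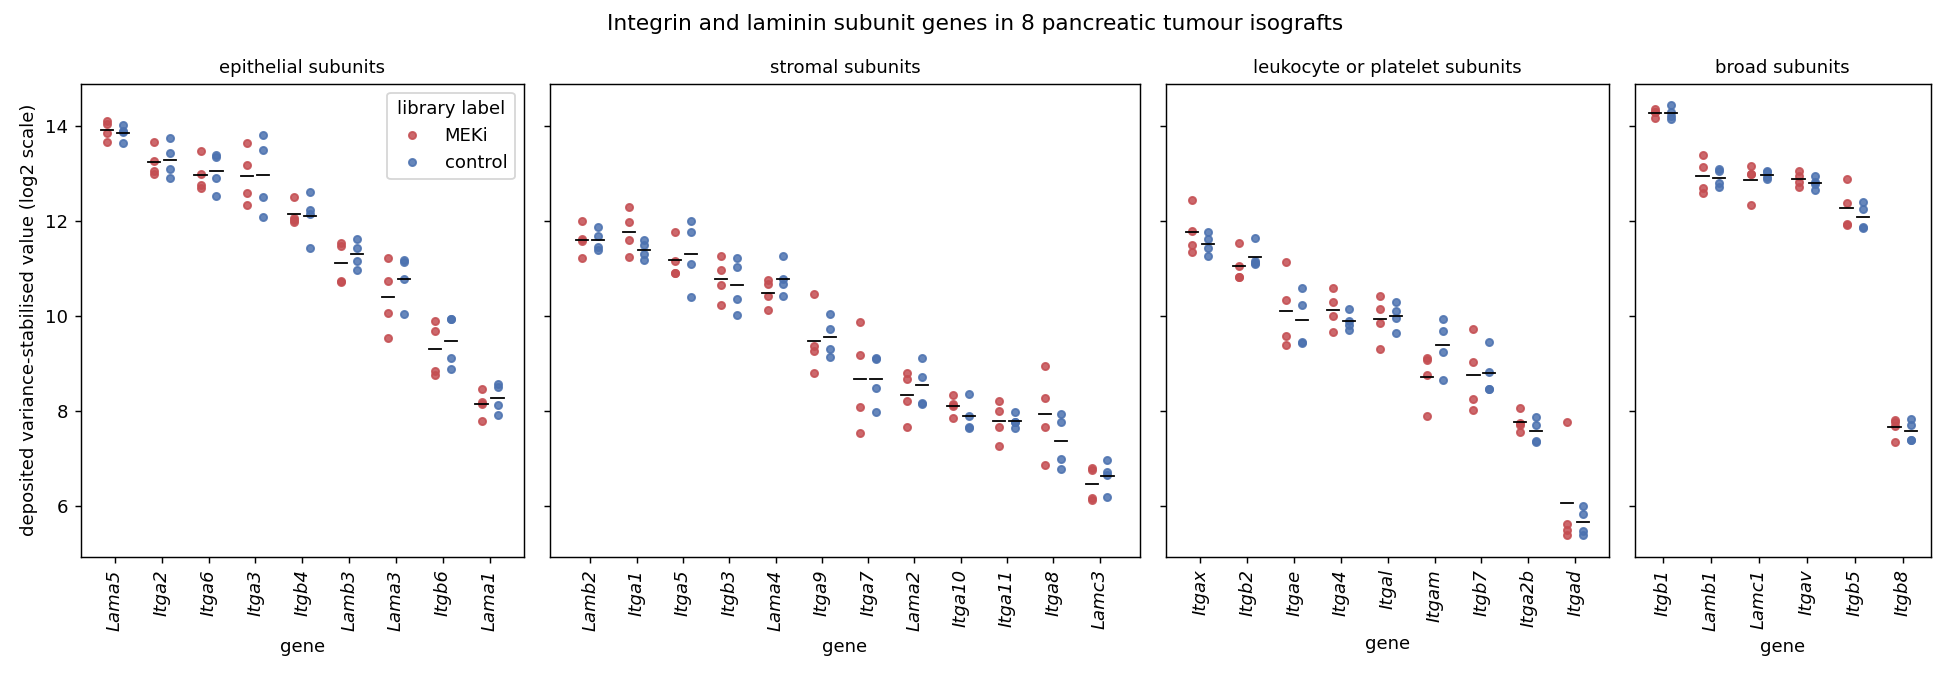
Deposited log2 value of each of the 36 genes, with 1 point per library, a short line at the mean of the 4 libraries of a label, and MEKi left of control, in panels for epithelial, stromal, leukocyte or platelet and broad subunits. For each gene the points of the labels overlap, and single points such as Itgad at 7.77 stand apart.

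Subunits that assemble with each other were compared across the 8 libraries in 17 known pairs, with exact permutation tests over all 40320 pairings and Benjamini-Hochberg adjustment over the 17. Both labels were pooled, since each label alone has too few libraries. Of 16 pairs with a pooled correlation, 14 were positive and 2 negative, and 3 passed the threshold by Pearson's r and 0 by Spearman's rho. Itgav with Itgb8 is given no pooled value, because the Itgb8 values fell into separate sets of 3 and 5 libraries.

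Itgae and Itgb7 varied together most closely, with r = 0.96 (exact permutation p = 4.46e-04, adjusted p = 0.00759), while rho of 0.90 missed the threshold (p = 0.00456, adjusted p = 0.0776). Without control 4 alone r was 0.96 and its exact permutation adjusted p was 0.0607. Without MEKi 3 and control 4, the libraries farthest from the median of Itgae, r was 0.89. Itga6 and Itgb4 had r = 0.86 (exact permutation p = 0.00275, adjusted p = 0.0234) and rho = 0.79 (p = 0.0279, adjusted p = 0.156). Without MEKi 2 and control 1 their r was 0.89. Lama3 and Lamb3 had r = 0.87 (exact permutation p = 0.00784, adjusted p = 0.0444) and rho = 0.76 (p = 0.0368, adjusted p = 0.156), with r = 0.77 without MEKi 4 and control 4. With those 2 libraries left out in each case, 6 remained and 0 of the 3 pairs had an adjusted p under 0.05. Lama3 with Lamb3 also missed the threshold without any one of the libraries but control 1 (exact permutation adjusted p between 0.0810 and 0.150). Itga6 with Itgb4 missed it without MEKi 1, MEKi 2, control 2, control 3 or control 4 (between 0.0540 and 0.150).

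The promoter of Itgb7, at chr15:102231886-102232185 on the minus strand of GRCm38.p6 (RefSeq), is shown for the closest pair. Itgae has no entry in the promoter table.
Itgb7: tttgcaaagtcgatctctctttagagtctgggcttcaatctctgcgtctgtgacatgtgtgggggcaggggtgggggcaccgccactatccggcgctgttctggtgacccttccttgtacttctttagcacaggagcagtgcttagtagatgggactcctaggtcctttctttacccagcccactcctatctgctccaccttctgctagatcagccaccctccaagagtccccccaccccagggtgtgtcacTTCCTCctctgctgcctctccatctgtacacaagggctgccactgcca
It holds 1 match to the PU.1 letters, in reverse form as TTCCTC, and none to the other 4 motifs.

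Other pairs did not pass the threshold. Itga4 with Itgb7 had r = 0.69 (exact permutation p = 0.0562, adjusted p = 0.172), and r was 0.97 (adjusted p = 0.0236) without MEKi 3 and MEKi 4. Without MEKi 4 alone its r was 0.94 (exact permutation adjusted p = 0.00337). The beta2 pairs had r = 0.59 for Itgal, 0.62 for Itgam and 0.66 for Itgax with Itgb2, with exact permutation adjusted p between 0.172 and 0.193. For Itgam with Itgb2 r was 0.03 without MEKi 4 and control 2, and for Itgal with Itgb2 it was 0.20 without MEKi 2 and MEKi 3, so these relations rest on those libraries. Lamb1 with Lamc1 had r = 0.63, and 0.02 without MEKi 4 and MEKi 3. The 2 negative pairs were Itga2b with Itgb3 (r = -0.47) and Itgav with Itgb6 (r = -0.05). Itgb1, which varied least, had r = 0.59 with Itga3, 0.70 with Itga5, 0.41 with Itga11 and 0.12 with Itga1, and 0 of these passed.

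Limma also called 0 of the listed genes that integrins and laminins work with, where it called 0.00523% of all tested genes. The counts of 0 below are thus near the share over all genes and do not set these lists apart. Of 20 adaptors and adhesion kinases on the inner face of integrins, 13 had higher and 7 lower means in MEKi libraries and limma called 0. Ilk, among those with lower means, was near the lower limit, with 6 to 11 reads in MEKi libraries and 3 to 11 in control libraries. Tns3, a tensin that links integrins to actin and the one with the smallest p, averaged 12.43 ± 0.22 in MEKi libraries and 12.24 ± 0.14 in control libraries, a log2 difference of 0.19 (SE 0.13). The kinase gene Ptk2, which encodes FAK, was chosen after its values were seen and averaged 11.42 ± 0.13 in MEKi libraries and 11.44 ± 0.07 in control libraries.

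Of 16 other basement membrane genes and laminin receptors, 8 had higher and 8 lower means in MEKi libraries and limma called 0. Col4a6, a collagen IV chain, averaged 8.75 ± 0.95 in MEKi libraries and 9.58 ± 0.26 in control libraries, with MEKi 3 and MEKi 4 the lowest (8.43 and 7.54). Of 4 further hemidesmosome genes, 3 had higher and 1 lower means and 0 were called. The lower one, Col17a1, was near the lower limit, with 0 to 16 reads in MEKi libraries and 5 to 19 in control libraries. Dst, which encodes the plakin that binds Itgb4 to keratin, had 12.57, 13.02, 13.25 and 13.37 in MEKi libraries, against 12.71, 12.71, 12.59 and 12.51 in control libraries. Its log2 difference was 0.43 (limma SE 0.16, interval 0.06 to 0.79, unadjusted p = 0.0268, adjusted p = 0.9996), with MEKi 1 inside the control range.

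Ligands followed. Of 11 matrix ligands of integrins, 2 had higher and 9 lower means in MEKi libraries and limma called 0. Vtn, vitronectin, a ligand of Itgav integrins and the one with the smallest p, averaged 6.32 ± 0.63 in MEKi libraries and 7.48 ± 1.51 in control libraries. It was highest in control 3 (9.07) and control 2 (8.45), the libraries with the most acinar reads, and the part of acinar tissue was not tested. Of 8 ligands on cell surfaces, 5 had higher and 3 lower means and 0 were called. Madcam1, the vessel ligand of Itga4 with Itgb7, had 6.42, 6.23, 5.87 and 6.20 in MEKi libraries, against 7.08, 6.64, 6.33 and 6.49 in control libraries. It rested on 12 to 33 reads in MEKi libraries and 19 to 67 in control libraries, with the highest MEKi library above the lowest control library, and its log2 difference was -0.45 (limma SE 0.18, unadjusted p = 0.035, adjusted p = 0.9996).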

How the data were processed

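The table holds log2, variance-stabilised values deposited by the authors for 8 libraries, with a lowest value of 5.12 in each. The submitters' processing notes name STAR 2.5.3a, DESeq2 1.18.1 and the build GRCm38. Per the labels' protocols, libraries were strand-specific total RNA. The annotation, the counting step and the filter were not given in the sources used here. Overlapping, antisense and near-identical genes are therefore uncertain. In GENCODE, 2 of the 36 genes have over 10% of their exon bases under same-strand exons of another gene, and 1 under opposite-strand exons.

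Inverting the transformation from its floor gave whole reads (within 0.01) for 100% of values, from which depth, reads and levels per length were taken. Of 19431 rows, 32 name no gene (0.101% to 0.167% of reads) and were dropped. Where a symbol had several rows (86 symbols), only the row of highest mean was used. The 19129 remaining genes each had at least 25 reads in all. The test was limma 3.58.1 under R 4.3.3 (trend, two-sided, Benjamini-Hochberg over all genes, threshold 0.05), MEKi against control, with no covariate. The replicate is the mouse, and no batch or date is given. Partner pairs were tested by exact permutation in numpy 2.4.6, with ranks from scipy 1.17.1 and p adjusted over the 17 pairs reported. A pair whose values had a gap over 50% of the range with at least 3 libraries on each side got no pooled value. Both tests were tested on simulated data.

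The members, gene lists and tests were chosen with earlier results of these data known. One gene that matches the naming rule is not reported here, nor are its pairs. Subunits given with a test are the 8 with the smallest limma p and Itga6, Itgb4, Itgb6, Lama3, Lamb3, Itga11, Itgb1, Itgam, Itgb2, Itgax and Lama4. Of each partner and ligand list, and of the epithelial and macrophage markers, the gene with the smallest p is named. Promoters are from RefSeq (GRCm38.p6), with 23 of the 36 genes matched by symbol. Coordinates count from 1. Alternatives were robust moderation, no variance trend, aligned medians, quantile normalization, only the 75% of genes highest in mean, every named row kept, array weights, voom on recovered reads, a covariate for the acinar score, a block for the replicate number, both control libraries with the highest acinar score left out, and each library left out. Figures were drawn with matplotlib 3.10.9.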

Additional observations from a re-analysis of the deposited data

Results flagged for a closer look

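In 3 of 72 sets of 4 libraries (36 genes under each label) a single library stood far from the other 3 by Dixon's test at the 95% level, where chance alone gives about 1 in 20. Itgad reached 7.77 in MEKi 3, against 5.64, 5.50 and 5.39 in the other MEKi libraries. Itgb4 reached 12.50 in MEKi 2, against 12.03, 11.98 and 12.06 in the other MEKi libraries. Itgb2 reached 11.65 in control 2, against 11.11, 11.16 and 11.10 in the other control libraries. MEKi 3 also had the highest B cell (8.46) and dendritic cell (9.05) list means, and control 2 the highest macrophage list mean (11.62). Their part in these values was not tested.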

How the results depend on the processing

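Limma called 0 of the 36 genes under all 19 alternatives. The count over all genes was 1, and 0 among the 75% of genes highest in mean, 0 with the replicate number as a block, 0 with a covariate for the acinar score, 4 without the 2 control libraries with the highest acinar score, and between 0 and 2 with each library left out. With the block, 3 of the 36 genes had an unadjusted limma p under 0.05, against 380 of all 19129 genes, and 0 of the 36 were called. The most under any other alternative was 2 of the 36, without MEKi 2, against 487 of all 19129 genes. Same-numbered libraries had correlations of -0.33, 0.20, -0.46 and 0.03 in their deviations from the label means. With 4 libraries a label, these values cannot show whether the numbers pair the mice.

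Of 304 differences of named subunits under alternatives, 22 changed sign, all of estimates between -0.18 and 0.03, and none passed the threshold. Without the 2 control libraries with the highest acinar score, Itga6 was 0.017, Lamb3 0.051, Itga11 0.075 and Itgb1 -0.014. Itga11 was 0.045 with quantile normalization, 0.022 with aligned medians and 0.20 with the acinar covariate. Itgb1 kept its sign with quantile normalization but moved to 0.16. With each library left out, Itga6 ranged from -0.24 to 0.045, Itgb4 from -0.20 to 0.20, Itgb6 from -0.38 to 0.0081, Itga11 from -0.15 to 0.17 and Itgb1 from -0.041 to 0.058. Of 176 pair correlations, 8 changed sign. With quantile normalization r was -0.068 for Itga3 with Itgb1, -0.071 for Itga5 with Itgb1 and 0.17 for Itgav with Itgb6. With each library left out, r ranged from -0.056 to 0.37 for Itga1 with Itgb1 and from -0.36 to 0.12 for Itgav with Itgb6. Lama3 with Lamb3 lost its call without any one of 7 libraries (exact permutation adjusted p between 0.0810 and 0.150), Itga6 with Itgb4 without any one of 5 (between 0.0540 and 0.150), and Itgae with Itgb7 without control 4 (0.0607). With quantile normalization Itga6 with Itgb4 and Lama3 with Lamb3 both missed it (0.0731), and with aligned medians Lama3 with Lamb3 did (0.0516). The causes were not tested. With 4 libraries a label, only large differences between labels can be called, and Itgad and Lamc3 rest on few reads.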
